A study of Mus musculus with 232 samples.

Results

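Single Dgcr8-/- mouse embryonic stem cells (ESCs) that had received a let-7 mimic were set directly against single Dgcr8-/- ESCs that had received a miR-294 mimic. Cells were assigned to an arm by the name of the sample, and the counts of repeat runs of a cell were summed. The let-7 arm held 48 cells and the miR-294 arm 55 cells, which were 103 of the 182 cells deposited. The other cells were 60 mock-transfected Dgcr8-/- ESCs, 16 wild-type (WT) ESCs of the V6.5 line and 3 miR-294 cells that carried another name prefix, and the mock and WT levels are given beside the contrast as background.

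All cells were grown with serum, LIF and 2i, that is, the MEK inhibitor PD0325901 and the GSK3 inhibitor CHIR99021, which hold ESCs in a naive state. Transfection was done with Dharmafect 1, and cells were captured on a Fluidigm C1 circuit 24 h later. One circuit was used for each condition and no repeat of a transfection was labelled, so a difference between the mimics and a difference between the chips or cultures cannot be told apart. Each arm was therefore 1 sample, no test was made, and the intervals below cover counting error only. The spread over cells is given as a description. Reads carried no molecular identifiers and are not independent molecules, so the spread over cells also holds amplification noise.

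Dgcr8 is the RNA-binding partner of Drosha in the complex that cuts primary miRNA transcripts, and cells without it make almost none of the canonical miRNAs. A transfected mimic enters Argonaute without that step and silences mRNAs whose 3′ UTR pairs with its seed. miR-294 belongs to a miRNA cluster that dominates in ESCs and is known to promote their cell cycle and self-renewal, whereas let-7 accumulates as cells differentiate and represses genes of the pluripotent and fetal state. Both mimics were here placed in the same miRNA-poor background.

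The sources named the let-7 mimic in 3 ways, as let-7i in the sample titles, let-7b in the series design and let-7c in the methods of the study. The mature sequences of these and of miR-294 are shown (RefSeq, GRCm38.p6), with the seed, bases 2 to 8 from the 5′ end, in capitals, since the seed sets the mRNAs that each mimic can pair with.

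let-7i-5p, chr10:122985698-122985719, minus strand: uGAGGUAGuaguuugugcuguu
let-7b-5p, chr15:85707325-85707346, plus strand: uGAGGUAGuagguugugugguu
let-7c-5p, chr15:85706616-85706637 and chr16:77599672-77599693, plus strand: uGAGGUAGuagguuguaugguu
miR-294-3p, chr7:3220691-3220712, plus strand: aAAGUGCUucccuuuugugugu

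Counted from the 5′ end, let-7b differs from let-7c by A17G, and let-7i differs from let-7c by G12U, A17G, U18C and G19U, so the 3 candidates share 1 seed and the name of the mimic does not change the sites searched below. In the RefSeq table, 11 mature mouse miRNAs carried the let-7 seed and 5 carried the seed of miR-294, among them miR-291a-3p, miR-295-3p, miR-302b-3p and miR-302d-3p. A match to the let-7 seed in an mRNA reads CTACCTC and a match to the miR-294 seed reads AGCACTT.

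Such matches are shown for 6 genes that were lower in let-7 cells and 5 genes that were lower in miR-294 cells. Each is the first match in the longest annotated 3′ UTR of the gene, on the strand of the mRNA (Gencode M21, GRCm38), with the seed match in capitals.

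Trim71, let-7 match, chr9:114512464-114512488, minus strand: gcctaagtcCTACCTCagcttaaat
Sall4, let-7 match, chr2:168748932-168748956, minus strand: ttaatttatCTACCTCaattatctt
Rrm2, let-7 match, chr12:24713353-24713377, plus strand: gctgtgtagCTACCTCagtcctgtt
Lin28a, let-7 match, chr4:134005181-134005205, minus strand: cctgttgaaCTACCTCatttttgcc
Igf2bp2, let-7 match, chr16:22059465-22059489, minus strand: aaataaaagCTACCTCaggtgtttt
Tarbp2, let-7 match, chr15:102523435-102523459, plus strand: gtgccatctCTACCTCtgacacagc
Cdkn1a, miR-294 match, chr17:29099819-29099843, plus strand: gacctgaatAGCACTTtggaaaaat
Vim, miR-294 match, chr2:13582642-13582666, plus strand: aagaagctcAGCACTTaacaactga
Klf6, miR-294 match, chr13:5869927-5869951, plus strand: caaaatcctAGCACTTgatttgctg
Cd109, miR-294 match, chr9:78716109-78716133, plus strand: ttttttgtaAGCACTTaaagaaata
Slc40a1, miR-294 match, chr1:45908267-45908291, minus strand: attgctgtgAGCACTTtctttgtcg

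Trim71 carried 4 let-7 matches and 1 miR-294 match, Lin28a carried 2 let-7 matches, and Cdkn1a carried 2 miR-294 matches. These are descriptions of the sequence and not measured sites of binding.

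A level is the pooled count of an arm as CPM (counts scaled to a common total per arm), divided by a factor for the composition of the 4 pooled sums, and a log2 ratio is the let-7 level over the miR-294 level, so a positive value means a higher level in let-7 cells. Counting intervals are exact 95% intervals. The level of a gene in single cells is given as the lowest, the median and the highest. Total counts per cell ranged from 808409 to 3979274 (median 1521869) in let-7 cells and from 984128 to 3757540 (median 1435140) among miR-294 cells. The number of genes counted per cell had a median of 7184 and 7196 once each cell was thinned to 500000 counts. Of the let-7 cells, 3 pairs from neighbouring capture sites were as alike as runs of 1 cell (Pearson's r of 0.980 to 0.991), and 1 such pair occurred in miR-294 cells, so that each pair was counted as 1 profile. Values over cells thus have n = 45 let-7 and n = 54 miR-294 cells. The 2 runs of let-7 cell 41 had a Pearson's r of 0.478, where runs of other cells with agreeing runs had 0.969 to 0.990, and the results were also computed without this cell. Long noncoding RNA genes took a median of 4.23% of the counts in let-7 cells, 2.30% in miR-294 cells and 2.31% in mock cells. Ribosomal protein genes took 5.02%, 6.40% and 5.19%, in the same order. Whether these shares bear on the results below was not tested.

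Markers of ESCs were counted in most cells of both arms, though some of them in fewer of the let-7 cells. Pou5f1 was counted in 44 of 45 let-7 cells and in 54 of 54 miR-294 cells, and Zfp42 in every cell of both arms. Nanog was counted in 44 let-7 and 54 miR-294 cells, Sall4 in 41 and 54, Sox2 in 41 and 53, and Esrrb in 38 and 54. As given below, the pooled levels of all of these markers were lower in let-7 cells. Of 10 fibroblast markers, 5 were at 0 in all let-7 cells and 6 in all miR-294 cells, with Col1a2, Col3a1, Postn and Lum among them in both arms. The summed level of the 10 markers was 0 in 26 of 45 let-7 cells and in 47 of 54 miR-294 cells, and its highest value was 199 and 25.5 (means 12.1 and 0.810). S100a4 was counted in 7 let-7 and 0 miR-294 cells, Pdgfrb in 5 and 2, Pdgfra in 4 and 0, and Dcn in 2 and 1. Thy1 was counted in 2 and 2 cells, and Col1a1 went the other way with 0 and 2. The highest Dcn level in let-7 cells was also 199. Some of the fibroblast markers were thus counted in more of the let-7 cells, and their part in the results below was not tested. Of 8 primitive endoderm markers, Gata6 and Sox17 were at 0 in both arms. Dab2 was counted in 0 of 45 let-7 cells and 3 of 54 miR-294 cells, and Lamb1 in 4 and 9. Pdgfra was counted in 4 and 0 cells, and Cubn in 1 and 0. The 2 with enough counts to be compared, Gata4 (9.37 and 3.94) and the basement membrane collagen Col4a1 (15.5 and 4.16, counted in 15 of 45 and 17 of 54 cells), were at least 2-fold higher in let-7 cells. Of the let-7 counts, 1 cell gave 97.3% for Gata4, whose log2 ratio turned to -3.87 without it, and 1 cell gave 51.2% for Col4a1, whose log2 ratio of 1.89 was 0.92 without it. The summed level of the 8 was 0 in 21 of 45 let-7 cells and 30 of 54 miR-294 cells, with highest values of 215 and 111, and its part in the results was not tested. Dgcr8 had a level of 28 in let-7 cells, 45.3 in miR-294 cells and 34.7 in mock cells, against 127 in WT cells. Counts were over the whole gene and a partial deletion leaves transcript outside it, so this is no full check of the genotype.

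The first question was whether each cell carried the mark of its own mimic. Targets were the genes that the study lists from earlier microarrays of Dgcr8-/- ESCs with either mimic, of which 169 of 171 let-7 targets and 492 of 495 miR-294 targets passed a mean count of at least 5. No gene was on both lists. The authors had removed the transfected cells without downregulation of targets, so the direction of these sums against mock had been used in the choice of cells, and it is no independent evidence.

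In let-7 cells, the summed level of let-7 targets spanned 4270 to 11184 around a median of 6091, and in miR-294 cells 10211 to 21594 around 16987. In mock cells the median was 15085. All but 1 of the 45 let-7 cells lay below the whole range of miR-294 cells. The sum of miR-294 targets spanned 24445 to 40641 in let-7 cells (median 33052) and 13322 to 24239 in miR-294 cells (median 19126), and the mock median was 32749. These ranges did not overlap. For the targets of the other mimic, the median of each arm lay within 1 SD over its cells of the mock median (SD 3168 for miR-294 targets in let-7 cells and 2265 for let-7 targets in miR-294 cells). The SD is a spread over cells and no measure of whether arms differ. For miR-294 targets, the let-7 cell was above the mock cell in a share of 0.531 of pairs. For let-7 targets, the mock cell was above the miR-294 cell in a share of 0.276, so miR-294 cells lay mostly higher than mock cells.

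**Figure D1:**
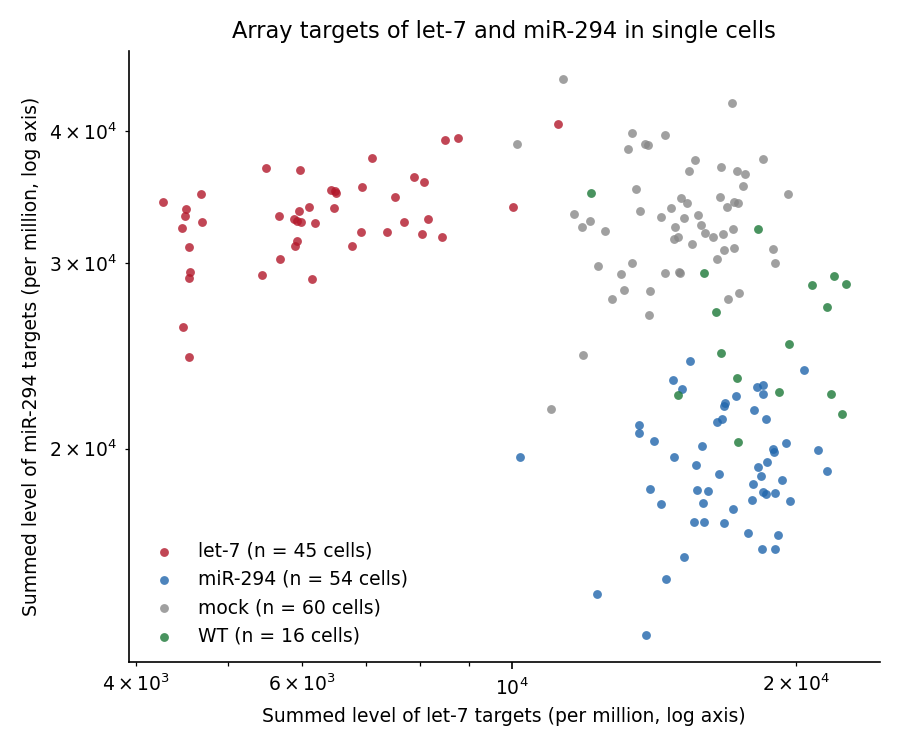
Each point is 1 cell, with the summed level of the let-7 targets on the x axis and of the miR-294 targets on the y axis, both in CPM on log axes. The 45 let-7 cells lie at the left with miR-294 target sums of 24445 or more, the 54 miR-294 cells lie at the lower right, and mock cells lie at the upper right.

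The balance of both sums, as log2 of the miR-294 target sum over the let-7 target sum, separated the arms in full. It ranged from 1.76 to 3.01 (median 2.42, SD 0.29, n = 45) in let-7 cells and from -0.24 to 0.94 (median 0.17, SD 0.25, n = 54) in miR-294 cells. Mock cells lay between them with 0.66 to 1.99 (median 1.08), and overlapped with both arms. In let-7 cell 41, the runs gave 2.47 and 2.30, so that both runs lay in the range of let-7 cells.

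Gene by gene, 103 of the 169 let-7 targets had a level at least 2-fold higher in miR-294 cells and 5 had one at least 2-fold higher in let-7 cells, with a median log2 ratio of -1.30. Of all 11183 genes compared, 14.8% were at least 2-fold higher in miR-294 cells and 21% at least 2-fold higher in let-7 cells, and the median log2 ratio was 0.03. Of the 492 miR-294 targets, 205 were at least 2-fold higher in let-7 cells and 17 at least 2-fold higher in miR-294 cells, with a median log2 ratio of 0.80.

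Genes are named here from those with a level of at least 50 in the higher arm that were counted in at least 75% of its cells. Tarbp2, which encodes a partner of Dicer, had the largest ratio of the let-7 targets. Its level was 3.96 in let-7 cells and 114 in miR-294 cells, with 50.4 in mock cells, a log2 ratio of -4.84 (counting interval -5.00 to -4.69). In let-7 cells its level ranged from 0 to 56.6 with a median of 0, and in miR-294 cells from 0 to 321 with a median of 129. The gene was thus counted in few let-7 cells, 13 of 45, and in nearly every miR-294 cell, 52 of 54. For Tarbp2, 16.6% of the 31-base words of its transcripts occur in other genes, so part of its count may be shared.

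Trim71, an RNA-binding protein and ubiquitin ligase of early development, had a level of 89.8 in let-7 cells and 816 in miR-294 cells (log2 ratio -3.18, counting interval -3.22 to -3.15), with 493 in mock cells. Its range was 0 to 288 (median 71.6) in let-7 cells and 122 to 1543 (median 742) among miR-294 cells, and 52 of the 54 miR-294 cells lay above every let-7 cell. Igf2bp2, which binds and stabilises mRNAs, had log2 ratio -3.54, with 9.35 in let-7 cells against 108 in miR-294 cells. Imp4, a component of the small-subunit processome of the nucleolus, had log2 ratio -3.10, with 43.2 against 372. The remaining let-7 targets named by the rule were Nme6 and Nme4 (nucleoside diphosphate kinases, log2 ratios -3.56 and -3.54), Ciao2a (cytosolic iron-sulfur assembly, -3.17) and Eme1 (a DNA endonuclease subunit, -2.92).

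Within the limits of level and cell count set for named genes, the largest ratio of the miR-294 targets was that of Cd109, a cell surface protein that binds TGF-beta. Its level was 82.1 in let-7 cells and 4.52 in miR-294 cells, with 27.5 in mock cells (log2 ratio 4.18, counting interval 4.04 to 4.33). It was counted in 35 of 45 let-7 cells (0 to 525, median 16.3) and in 6 of 54 miR-294 cells (0 to 110, median 0). Serpinb9b, a serine protease inhibitor, followed with 389 against 30.1 (log2 ratio 3.69) and the zinc finger factor Klf6 with 442 against 49.5 (3.16).

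Of the other miR-294 targets, Ncoa7 had log2 ratio 2.34, Reep3 2.31, Cdkn1a 2.29 and Znfx1 2.23. Cdkn1a and Znfx1 had mock levels of 203 and 96.2, against miR-294 levels of 44.3 and 14.1. Klf6, Serpinb9b, Reep3 and Ncoa7 had mock levels of 119, 115, 28.1 and 24.5, below their let-7 levels of 442, 389, 87.7 and 67, and above their miR-294 levels of 49.5, 30.1, 17.7 and 13.3.

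Seed matches were then counted in the longest 3′ UTR of every gene with one annotated. A let-7 match occurred in 122 of 167 let-7 targets with an annotated 3′ UTR (73.1%), against 10.6% of all 10302 3′ UTRs. A miR-294 match occurred in 404 of 492 miR-294 targets (82.1%), against 18.2% of all 3′ UTRs. The array lists were themselves defined by lower expression and a seed match, so these shares are descriptions.

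Over all genes, those without a match to either seed had a median log2 ratio of -0.03 (n = 7647). With let-7 matches only, the median was -0.20 for 1 match (n = 709) and -0.83 for 2 or more (n = 71). With miR-294 matches only, it was 0.29 for 1 match (n = 1293) and 0.56 for 2 or more (n = 268). Genes with matches to both had a median of 0.01 (n = 314). The classes with matches include array targets, which were defined by lower expression and a seed match. The part of these targets in the medians was not tested. For all genes with let-7 matches only, the median of -0.25 turned to 0.19 with equal weight for every cell, where that of all genes was 0.48. As medians over cells, the classes with matches to 1 seed only and all genes had a median of 0.00. Of the genes with 2 or more let-7 matches, 39.4% were at least 2-fold higher in miR-294 cells and 2.82% at least 2-fold higher in let-7 cells. Of the genes with 2 or more miR-294 matches, 11.6% and 35.8% were. The classes also differed in the median length of the 3′ UTR, with 904 bases for no match, 3082 for 2 or more let-7 matches and 3456 for 2 or more miR-294 matches, and the part of length was not tested.

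**Figure D2:**
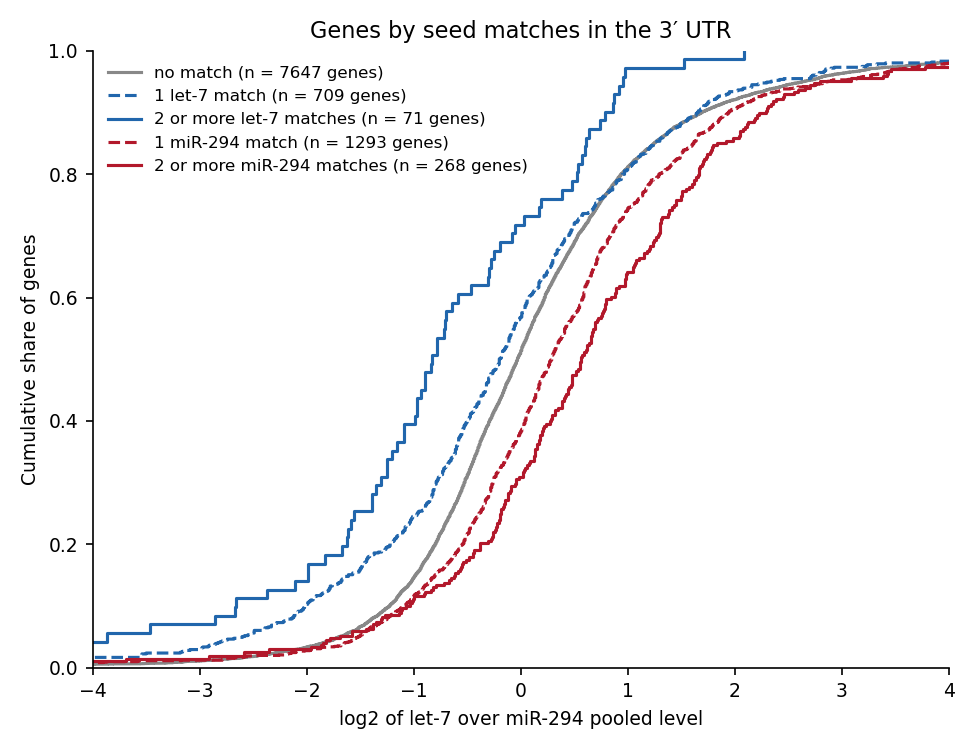
Cumulative share of genes (y axis) at or below each log2 ratio of the let-7 over the miR-294 level (x axis), for genes with no seed match, 1 match or 2 or more matches of 1 kind in the 3′ UTR. The curve of 2 or more let-7 matches lies farthest left (median -0.83) and that of 2 or more miR-294 matches farthest right (median 0.56).

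The next question was which genes differed most, whether targets or not. In all, 2343 genes were at least 2-fold higher in let-7 cells and 1653 at least 2-fold higher in miR-294 cells, so 58.6% of the genes past 2-fold were on the let-7 side. This split moved with the scaling. It was 68.7% in plain CPM and 81.2% when every cell had equal weight, where the median log2 ratio of all genes was shifted by 0.17 and 0.46. With TMM factors it was 55.9%. With a mean count of at least 50, 567 genes (10.6%) were at least 2-fold higher in let-7 cells and 745 (13.9%) in miR-294 cells.

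**Figure D3:**
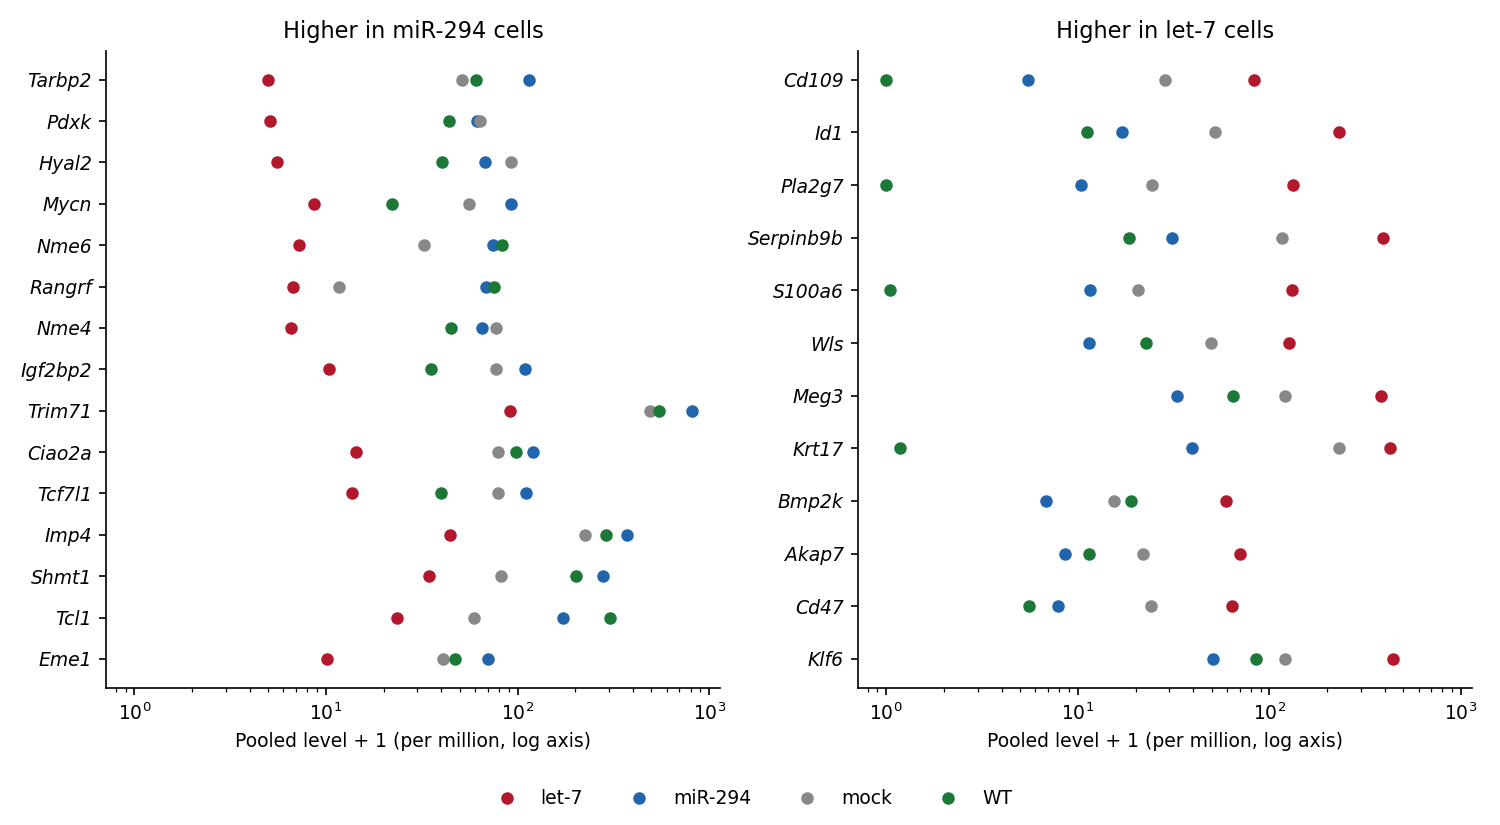
Pooled level plus 1 (x axis, CPM, log axis) of 15 genes with the largest ratio on the miR-294 side and 12 of those on the let-7 side, in the let-7, miR-294, mock and WT arms. The mock level lies above the let-7 level for all 15 genes higher in miR-294 cells and below it for all 12 genes drawn that were higher in let-7 cells. The genes were picked for large ratios in these same data, which favours a mock level on that side, so its place is a description only.

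Of all 11183 genes compared, 169 were let-7 targets of the arrays and 492 were miR-294 targets. The genes named below also had to pass the limits of level and cell count. On the miR-294 side, 8 of the 15 genes with the largest ratios were let-7 targets of the arrays, namely Tarbp2, Nme6, Nme4, Igf2bp2, Trim71, Ciao2a, Imp4 and Eme1. The other genes were Hyal2 and Pdxk (both log2 ratio -3.87), Mycn (-3.58), Rangrf (-3.56), Tcf7l1 (-3.13), Shmt1 (-3.04) and Tcl1 (-2.94). Pdxk, which makes the active form of vitamin B6, carried 2 let-7 matches, and Tcf7l1, a repressor of Wnt target genes in ESCs, carried 1. Hyal2 and Mycn carried a miR-294 match and no let-7 match. Mycn had a level of 7.66 in let-7 cells and 91.6 in miR-294 cells, ranging from 0 to 74.2 (median 0) and from 0 to 269 (median 71). It was counted in 12 of 45 let-7 cells and 51 of 54 miR-294 cells. For Rangrf, 39.3% of the 31-base words are shared with other genes.

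On the let-7 side, Cd109, Serpinb9b and Klf6 were miR-294 targets of the arrays and the other 12 genes were not. Id1, an inhibitor of basic helix-loop-helix factors that responds to BMP signals, had a level of 230 in let-7 cells, 16 in miR-294 cells and 51.2 in mock cells (log2 ratio 3.85, counting interval 3.77 to 3.92). It ranged from 0 to 937 (median 185) over let-7 cells and from 0 to 174 (median 0) over miR-294 cells, and 25 of the 45 let-7 cells lay above every miR-294 cell. Wls, which carries Wnt proteins to the cell surface, had log2 ratio 3.60, with 126 against 10.4. Pla2g7, a secreted phospholipase, had 3.82, the calcium-binding protein S100a6 had 3.62, the imprinted long noncoding RNA Meg3 had 3.59, and the keratin Krt17 had 3.46. Bmp2k, Akap7 and Cd47 had log2 ratios of 3.32, 3.19 and 3.18. Of the 31-base words of Krt17 and Bmp2k, 15.8% and 11.3% are shared with other genes.

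Core pluripotency genes were mostly higher in miR-294 cells. Of 25 pluripotency factors, 16 (64%) were at least 2-fold higher in miR-294 cells and 1 (4%) in let-7 cells. The shares of all genes compared were 14.8% and 21%. The 25 factors had a median log2 ratio of -1.30. Only 3 of the 25 were let-7 targets of the arrays, and the 22 on neither array list had a median of -1.31. Their summed level ranged from 1775 to 9633 (median 5168) in let-7 cells and from 7252 to 18593 (median 10355) among miR-294 cells, with a median of 8850 in mock cells. Of the 45 let-7 cells, 40 lay below all miR-294 cells.

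Sall4 (ENSMUSG00000027547), a zinc finger factor of the pluripotency network and a let-7 target of the arrays, had a level of 132 in let-7 cells and 939 in miR-294 cells, with 716 in mock and 1013 in WT cells. Over let-7 cells its values were 0 to 608 (median 90.7), and over miR-294 cells 246 to 1897 (median 871). Of the let-7 cells, 38 lay below every miR-294 cell, and none reached the median of miR-294 cells. The log2 ratio was -2.83 (counting interval -2.86 to -2.80).

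Nanog (ENSMUSG00000012396), a homeobox factor that guards the naive state, was on neither array list. Its level was 126 in let-7 cells, 606 in miR-294 cells, 448 in mock cells and 668 in WT cells (log2 ratio -2.26, counting interval -2.29 to -2.23). Over let-7 cells it ranged from 0 to 654 (median 23.6) and over miR-294 cells from 112 to 1269 (median 578). The let-7 cells were spread widely, as 26 of 45 lay below every miR-294 cell and 2 lay above the miR-294 median. For Nanog, 10.4% of the 31-base words occur in other genes.

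Nr5a2, a nuclear receptor, had log2 ratio -3.98 at low levels (1.15 and 18), and Tcl1, a coactivator of Akt, had -2.94 (22.4 and 172). The pooled levels of Pou5f1 (131 in let-7 cells, 257 in miR-294 cells), Sox2 (19.2, 48), Esrrb (87.3, 215) and Zfp42 (497, 1273) also lay lower in let-7 cells. The list was not uniform. Dppa4 (192 and 181, log2 ratio 0.09) and L1td1 (484 and 445, 0.12) had nearly equal levels, and Klf5 was higher in let-7 cells (74.5 and 32.4). Of 10 early differentiation markers, 7 did not reach a mean count of 5, and the 3 that did, Gata4, Grhl2 and Mixl1, were counted in 6, 10 and 7 of 45 let-7 cells and in 4, 14 and 10 of 54 miR-294 cells. In let-7 cells, 1 cell gave 97.3% of the count of Gata4, and 1 cell 88.6% of that of Grhl2.

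**Figure D4:**
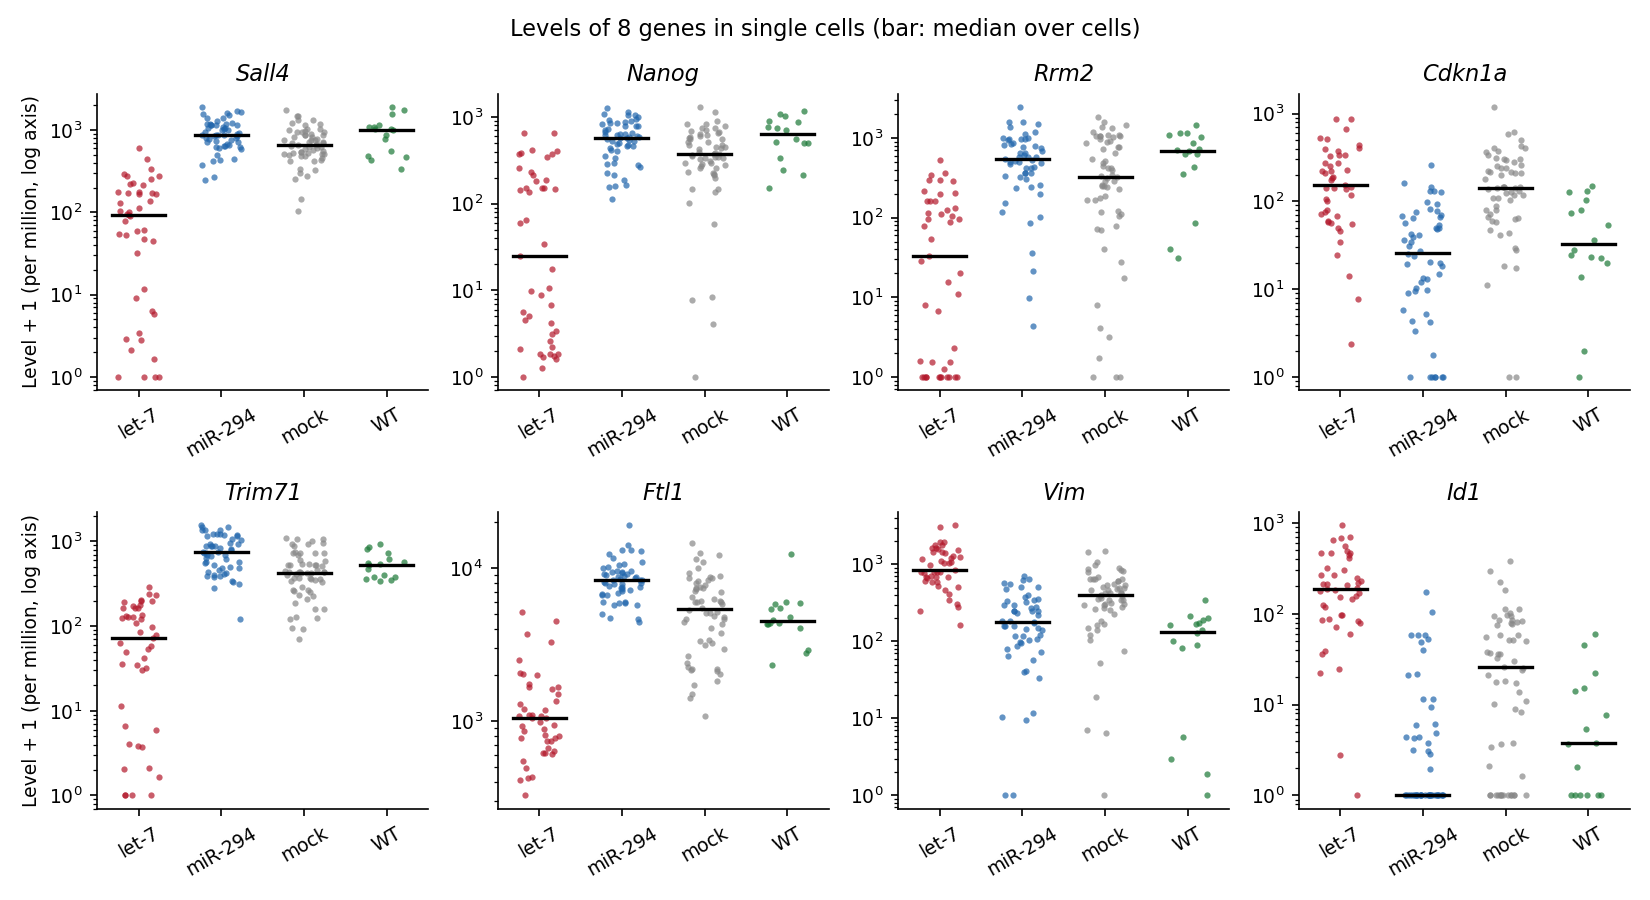
Level plus 1 (y axis, CPM, log axis) of 8 genes in single cells of the let-7 (n = 45), miR-294 (n = 54), mock (n = 60) and WT (n = 16) arms, with the median over cells as a bar. Sall4, Nanog, Rrm2, Trim71 and Ftl1 lie lower in let-7 cells (medians 90.7, 23.6, 32.4, 71.6 and 1047) than in miR-294 cells (871, 578, 542, 742 and 8349), and Cdkn1a, Vim and Id1 lie higher.

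Let-7 is best known for repressing a set of fetal and oncogenic genes. Of 17 such genes, 15 (88.2%) were at least 2-fold higher in miR-294 cells and 0 in let-7 cells. The shares of all genes compared were 14.8% and 21%. The 17 genes had a median log2 ratio of -1.85, the lowest of the lists compared. Since 8 of them were let-7 targets of the arrays and 13 carried a let-7 match, the list is not independent of the target list, though the 8 genes on neither array list had a median of -1.75. Their summed level ranged from 117 to 2402 (median 1100) in let-7 cells and from 1176 to 4240 (median 2833) among miR-294 cells, and 43 of 54 miR-294 cells lay above all let-7 cells. Lin28a, which blocks the maturation of let-7, had a level of 0.468 in let-7 cells, 29.2 in miR-294 cells, 1.07 in mock cells and 232 in WT cells. It was counted in 1 of 45 let-7 cells and 25 of 54 miR-294 cells, ranging from 0 to 45.1 and from 0 to 198. Its mock level was thus close to that of let-7 cells, unlike those of Trim71 and Igf2bp2. A positive log2 ratio was found for 2 members, among them Ccnd1, which encodes cyclin D1 (0.81).

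Cell cycle genes differed by function. The study's list of 36 cell cycle genes had a median log2 ratio of -0.79. At least 2-fold higher in miR-294 cells were 12 of them (33.3%), and in let-7 cells 2 (5.56%). The shares of all genes compared were 14.8% and 21%. Per cell, the summed level of the 36 genes ranged from 692 to 7857 (median 3550) in let-7 cells. In miR-294 cells it ranged from 2442 to 10640 (median 7028), so that the arms overlapped. By phase, the median was -0.76 for 13 G1/S genes, -0.78 for 6 S genes, -1.12 for 4 G2 genes and -0.82 for 12 G2/M genes.

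Replication licensing genes, which load and fire the replicative helicase, were lower in let-7 cells almost throughout. Of 21 genes, 20 had a negative log2 ratio, with a median of -1.23. At least 2-fold higher in miR-294 cells were 15 (71.4%), against 14.8% of all genes compared. Only 1 of the 21 was an array target of let-7, and none carried a let-7 match. Cdc6 had a level of 31.6 in let-7 cells and 189 in miR-294 cells (log2 ratio -2.58) and was counted in 17 of 45 and 46 of 54 cells. Mcm10 had log2 ratio -1.93, Orc1 -1.39 and Mcm2 -1.36. Orc4, at 0.18, was the exception.

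Of 10 genes of deoxynucleotide synthesis, 4 (40%) were at least 2-fold higher in miR-294 cells (median log2 ratio -0.78). The share of all genes compared was 14.8%. Rrm2 (ENSMUSG00000020649), the small subunit of ribonucleotide reductase and a let-7 target of the arrays, had a level of 87.1 in let-7 cells, 632 in miR-294 cells, 509 in mock cells and 672 in WT cells (log2 ratio -2.86, counting interval -2.90 to -2.83). Its values were 0 to 531 (median 32.4) over let-7 cells, 11 of which had no count, and 3.36 to 2456 (median 542) over miR-294 cells. No let-7 cell reached the median of miR-294 cells. Of the 31-base words of Rrm2, 12% occur in other genes. Tk1, thymidine kinase, had log2 ratio -2.47, Nme1 -1.17 and Dtymk -1.05, while Rrm2b, the p53-responsive subunit and a miR-294 target, had 0.81.

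Mitosis genes differed less, with a median log2 ratio of -0.55. At least 2-fold higher in miR-294 cells were 7 of 25 (28%), and in let-7 cells 1 (4%). The shares of all genes compared were 14.8% and 21%. Birc5, or survivin, had log2 ratio -2.18, Plk1, a mitotic kinase, -2.17, and cyclins Ccna2 and Ccnb1 -1.52 and -1.46. Of the 31-base words of Plk1 and Ccnb1, 14.8% and 27.7% occur in other genes. Cdc20 had nearly equal levels (122 and 121), and the proliferation antigen Mki67 was higher in let-7 cells (255 and 101, log2 ratio 1.34).

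Of 11 cell cycle brakes, 3 were at least 2-fold higher in let-7 cells (27.3%, against 21% of all genes compared) and 0 at least 2-fold higher in miR-294 cells, with a median log2 ratio of 0.76. Of the 11, 6 were miR-294 targets of the arrays. Cdkn1a (ENSMUSG00000023067), the CDK inhibitor p21, had a level of 216 in let-7 cells, 44.3 in miR-294 cells, 203 in mock cells and 47.8 in WT cells (log2 ratio 2.29, counting interval 2.24 to 2.34). Its values were 1.40 to 876 (median 151) over let-7 cells and 0 to 258 (median 25.1) over miR-294 cells. The arms overlapped, as 14 let-7 cells lay above all miR-294 cells and 8 miR-294 cells lay below all let-7 cells. The mock level was close to that of let-7 cells and the WT level to that of miR-294 cells. Rbl2, a pocket protein, had log2 ratio 1.94 (16.2 and 4.24) and the kinase Lats2 1.62 (77.3 and 25.2), although 41.7% of the 31-base words of Lats2 are shared with other genes.

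Genes of the G1 phase differed in both directions. Cdc25a, the phosphatase that activates Cdk2, and E2f3, both let-7 targets, had log2 ratios of -2.09 and -1.58, and Cdk4 had -1.09. Cdk6 (740 and 282, log2 ratio 1.39) and Ccnd2 (57.9 and 6.39, 3.18) were higher in let-7 cells. For Ccnd2, 1 let-7 cell gave 45.8% of the count of its arm.

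Nucleolar genes, which serve ribosome production, were higher in miR-294 cells. Of 22 nucleolar and Myc-responsive genes, 16 (72.7%) were at least 2-fold higher in miR-294 cells, against 14.8% of all genes compared. All 22 had a negative log2 ratio, and the median was -1.32. Their summed level ranged from 2719 to 7839 (median 5282) in let-7 cells and from 7019 to 16173 (median 12213) among miR-294 cells. Of the 54 miR-294 cells, 52 lay above every let-7 cell, and 1 of the 22 genes was an array target of let-7 and 1 carried a let-7 match. The mock median was 8668. Gnl3, or nucleostemin, had levels of 82.5 and 335 (log2 ratio -2.02), the RNA polymerase I subunit Polr1b 39.7 and 144 (-1.86), and Rrp12, which exports ribosomal subunits and is the let-7 target of the list, 14.4 and 62.8 (-2.12).

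Of 82 ribosomal protein genes, 79 had a negative log2 ratio and 2 were at least 2-fold higher in miR-294 cells, namely Rpl27 (-1.21) and Rplp0 (-1.06), with a median of -0.59. Among 14 translation factors, Cnbp (-1.35), Eef1g (-1.29) and Eef1d (-1.05) were at least 2-fold higher in miR-294 cells. These were 2.44% of the ribosomal protein genes and 21.4% of the translation factors, against 14.8% of all genes compared. With equal weight for every cell the medians of the lists were -0.14 and -0.17, where that of all genes was 0.48. Eef1g ranged from 134 to 1781 (median 971) over let-7 cells and from 1341 to 4217 (median 2203) over miR-294 cells, and 48 of 54 miR-294 cells lay above every let-7 cell. Ribosomal and translation genes have many processed copies, and 47.6% of the 31-base words of Eef1g and 42.8% of those of Rplp0 occur in other genes.

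The Myc family had no common direction (median log2 ratio 0.12 over 11 genes). Mycn, as above, and Myc (4.58 and 13.9, log2 ratio -1.60) were higher in miR-294 cells, while the Myc antagonists Mxi1 (10.2 and 3.21, 1.67) and Mxd3 (9.09 and 3.09, 1.56) were higher in let-7 cells.

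In metabolism, 8 of 14 genes of threonine and one-carbon metabolism (57.1%) were at least 2-fold higher in miR-294 cells and 0 in let-7 cells. The shares of all genes compared were 14.8% and 21%. The 14 genes had a median log2 ratio of -1.22, and none was a target of the arrays. Tdh, threonine dehydrogenase, on which mouse ESCs depend, had a level of 259 in let-7 cells and 980 in miR-294 cells (log2 ratio -1.92). It ranged from 0.601 to 1033 (median 135) and from 257 to 2378 (median 925), and 28 let-7 cells lay below every miR-294 cell. For Tdh, 17.1% of the 31-base words are shared. Shmt1, serine hydroxymethyltransferase, had 33.7 and 278 (-3.04), with 80.7 in mock cells. Mthfd2, the mitochondrial folate enzyme, was on the other side (140 and 77, 0.86).

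Glycolysis genes had a median log2 ratio of -0.75 over 17 genes. Pgam1 (-1.96), the glucose transporter Slc2a3 (-1.79), Aldoa (-1.09) and Ldha (-1.09) were at least 2-fold higher in miR-294 cells, and Hk1 (1.90) in let-7 cells. These were 23.5% and 5.88% of the list, against 14.8% and 21% of all genes compared. Of the 31-base words of Pgam1, Aldoa and Ldha, 37.1%, 17% and 19.6% occur in other genes. The 79 nuclear genes of oxidative phosphorylation had a median of -0.40, which turned to 0.02 with equal weight for every cell, where the median of all genes was 0.48. The 15 mitochondrially encoded genes had a median of -0.15, which turned to 0.02 in plain CPM and to 0.39 with equal weight for every cell.

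Of 13 iron genes, 3 (23.1%) were at least 2-fold higher in let-7 cells and 3 (23.1%) in miR-294 cells. The shares of all genes compared were 21% and 14.8%, and the iron list had no common direction (median log2 ratio 0.08). Ftl1, the ferritin light chain, had a level of 1258 in let-7 cells, 8591 in miR-294 cells, 5928 in mock cells and 4777 in WT cells (log2 ratio -2.77, counting interval -2.78 to -2.76). Its values were 327 to 5170 (median 1047) over let-7 cells and 4427 to 19012 (median 8349) over miR-294 cells, and 43 let-7 cells lay below every miR-294 cell. Of its 31-base words, 57.7% occur in other genes. Slc40a1, or ferroportin, the iron exporter and a miR-294 target of the arrays, had a level of 45.6 in let-7 cells and 11.3 in mock cells, and 1 count in all miR-294 cells together. It was counted in 22 of 45 let-7 cells and 1 of 54 miR-294 cells, and its log2 ratio of 12.08 had a counting interval of 9.60 to 17.38. The haem oxygenase Hmox1 had log2 ratio 1.30, but its medians over cells were 89.4 in let-7 and 105 in miR-294 cells, so the medians lay the other way.

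Histone chaperones had a median log2 ratio of -0.70 over 14 genes. At least 2-fold higher in miR-294 cells were 2 of them (14.3%), near the 14.8% of all genes compared. Set, an inhibitor of histone acetylation, had a level of 2168 in let-7 cells and 7046 in miR-294 cells (log2 ratio -1.70), ranging from 525 to 5515 (median 2134) and from 2347 to 13712 (median 6849), and 44 of 54 miR-294 cells lay above every let-7 cell. Of its 31-base words, 31.3% occur in other genes. Nasp, which carries histones H3 and H4, had -1.43.

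Single genes of the cytoskeleton and cell surface were among those higher in let-7 cells. Of 19 cytoskeleton and actin regulators, 7 were at least 2-fold higher in let-7 cells (36.8%, against 21% of all genes compared) and 0 at least 2-fold higher in miR-294 cells (median log2 ratio 0.54), with the miR-294 target Rhoc (42.8 and 5.72, 2.90), Capg (53.6 and 14.6, 1.87) and thymosin beta-4, Tmsb4x (468 and 133, 1.82), among them. The summed level of the list overlapped between the arms, with medians of 18971 over let-7 cells and 16447 over miR-294 cells, and the let-7 cell was the higher in a share of 0.533 of pairs of cells. The abundant actin Actg1 (-0.54), of whose 31-base words 40.2% occur in other genes, and the actin regulators Arpc2 (-0.55) and Cfl1 (-0.29) were lower in let-7 cells. Of 12 epithelial and mesenchymal genes, 6 (50%) were at least 2-fold higher in let-7 cells and 1 (8.33%) in miR-294 cells (median 1.01). Of all genes compared, 21% and 14.8% were. The gene higher in miR-294 cells was the tight junction gene Cldn6, counted in 3 of 45 and 7 of 54 cells (log2 ratio -7.05). Another tight junction gene, Cldn7, was higher in let-7 cells, with its values given under the other observations. Vim, encoding the intermediate filament vimentin and a miR-294 target of the arrays, had a level of 1020 in let-7 cells, 224 in miR-294 cells, 453 in mock cells and 130 in WT cells (log2 ratio 2.19, counting interval 2.16 to 2.21). Its values were 163 to 3198 (median 838) over let-7 cells and 0 to 716 (median 176) over miR-294 cells, and 28 let-7 cells lay above every miR-294 cell. Cdh2, or N-cadherin, had 37.4 and 2.71 (3.78).

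Of 12 annexins and S100 genes, 5 (41.7%) were at least 2-fold higher in let-7 cells and 0 in miR-294 cells. Of all genes compared, 21% and 14.8% were. The 12 genes had a median log2 ratio of 0.93, and none was a target of the arrays or carried a match to either seed. S100a6 ranged from 0 to 572 (median 55.5) over let-7 cells and from 0 to 177 (median 0.736) over miR-294 cells. Anxa3 had levels of 283 and 76.6 (1.89) and Anxa1 of 124 and 30.8 (2.01). The 10 fibroblast markers, of which S100a4 is a member of both lists, had a summed level of 0 in 26 of 45 let-7 cells and 47 of 54 miR-294 cells, and their part in these ratios was not tested.

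The imprinted genes at the Dlk1 and Meg3 locus formed a block. Meg3 (chr12:109541001-109571726), Rian (chr12:109603940-109661716) and Mirg (chr12:109729764-109749460), maternally expressed noncoding RNAs on the plus strand, had log2 ratios of 3.59, 2.95 and 3.10. Meg3 had a level of 382 in let-7 cells, 31.8 in miR-294 cells, 120 in mock cells and 63.9 in WT cells, ranging from 0 to 1972 (median 202) and from 0 to 230 (median 9.54). Rian had 839, 108, 418 and 167, ranging from 0 to 3863 (median 580) and from 0 to 1105 (median 22.4). For each of both genes, 43 of 45 let-7 cells lay above the median of miR-294 cells. Other imprinted genes differed less, and 13 tested members had a median log2 ratio of 0.24. Long noncoding RNA genes as a class had a median of 0.50 over 484 genes, with 159 (32.9%) at least 2-fold higher in let-7 cells and 52 (10.7%) at least 2-fold higher in miR-294 cells, against 20.3% and 15.1% of 10374 protein coding genes.

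Immediate early and stress genes were higher in part of the let-7 cells. Of 8 tested genes, 7 (87.5%) were at least 2-fold higher in let-7 cells and 0 in miR-294 cells (median log2 ratio 1.87). The shares of all genes compared were 21% and 14.8%. The stress factor Atf3 had a level of 91.3 in let-7 cells, 0.897 in miR-294 cells and 5.81 in mock cells (6.67), and was counted in 29 of 45 let-7 cells (0 to 1130, median 12.4) and 5 of 54 miR-294 cells. Jun, a subunit of AP-1, had 17 and 1.34 (3.66). Egr1, an early target of ERK, had 69.8 and 17.4 (2.01), with a median of 0 in both arms. Of 8 genes of the FGF and ERK response, Egr1 and Dusp6 were at least 2-fold higher in let-7 cells (25%, against 21% of all genes compared). Dusp6, a phosphatase induced by ERK, had 83.8 in let-7 cells, 5.44 in miR-294 cells and 7.20 in mock cells (3.94), with 1 let-7 cell at 31.2% of its count. The part of these genes in the other results was not tested.

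Of p53 target genes, Cdkn1a, Perp (104 and 15.3, log2 ratio 2.77), Gadd45a (33.6 and 4.77, 2.82) and Ei24 (63.6 and 21.3, 1.58) were at least 2-fold higher in let-7 cells, while Trp53 itself was lower there (801 and 1396, -0.80) and Aen (-1.22), Phlda3 (-1.12) and Zmat3 (-1.03) were at least 2-fold higher in miR-294 cells. These were 23.5% and 17.6% of the 17 tested genes, near the shares of 21% and 14.8% of all genes compared. Over the 17 tested genes the median log2 ratio was -0.07, which turned to 0.10 in plain CPM and to 0.49 with equal weight for every cell. Of 14 apoptosis regulators, 6 were at least 2-fold higher in let-7 cells and 2 at least 2-fold higher in miR-294 cells (median 0.78). These were 42.9% and 14.3%, against 21% and 14.8% of all genes compared. The miR-294 target Casp2 (34.7 and 14.9, 1.22) was on one side and Casp6 (5.15 and 11.6, -1.17) on the other.

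Genes of the miRNA pathway itself also differed. Besides Tarbp2, Dicer1, which cuts precursors to mature miRNAs, had a level of 11.6 in let-7 cells and 69.3 in miR-294 cells (log2 ratio -2.58), with 31.2 in mock cells. It was counted in 15 of 45 let-7 cells and 46 of 54 miR-294 cells. Ago2, the Argonaute that slices targets, had 37.7 and 120 (-1.67) and carried 3 let-7 matches. Ago3 (112 and 34.9, 1.68) and Tnrc6b (72.7 and 29.4, 1.30), both with miR-294 matches, were higher in let-7 cells, and Ago3 carried 1 let-7 match besides 3 miR-294 matches. The 13 tested genes had a median of 0.26.

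Of 13 genes of DNA methylation, 3 were at least 2-fold higher in let-7 cells (23.1%) and 2 in miR-294 cells (15.4%). These shares were near the 21% and 14.8% of all genes compared. On the miR-294 side, Dnmt3b, a let-7 target of the arrays, had levels of 28.1 and 81.9 (log2 ratio -1.54). Uhrf1, which guides maintenance methylation, had 261 and 709 (-1.44). The median of the 13 genes was -0.25, and 0.17 with equal weight for every cell. Of the 31-base words of Dnmt3b and Uhrf1, 13.5% and 24.2% occur in other genes. Of lysosomal genes, Scpep1 (522 and 166, 1.65) and Lamp2 (283 and 108, 1.39), both miR-294 targets of the arrays, were at least 2-fold higher in let-7 cells, while the list had a median of 0.42. These 2 were 12.5% of the 16 lysosomal genes, below the 21% of all genes compared, and 1 was at least 2-fold higher in miR-294 cells. Of 14 genes of TGF-beta and Nodal signalling, 3 (21.4%) were at least 2-fold higher in let-7 cells and 2 (14.3%) in miR-294 cells. Both shares were near the 21% and 14.8% of all genes compared, and the median of the list was 0.32. On the let-7 side, Tgfbr2, a miR-294 target, was counted in 18 of 45 let-7 cells and 1 of 54 miR-294 cells. Smad3 had levels of 71 and 30.5 (1.22).

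**Figure D5:**
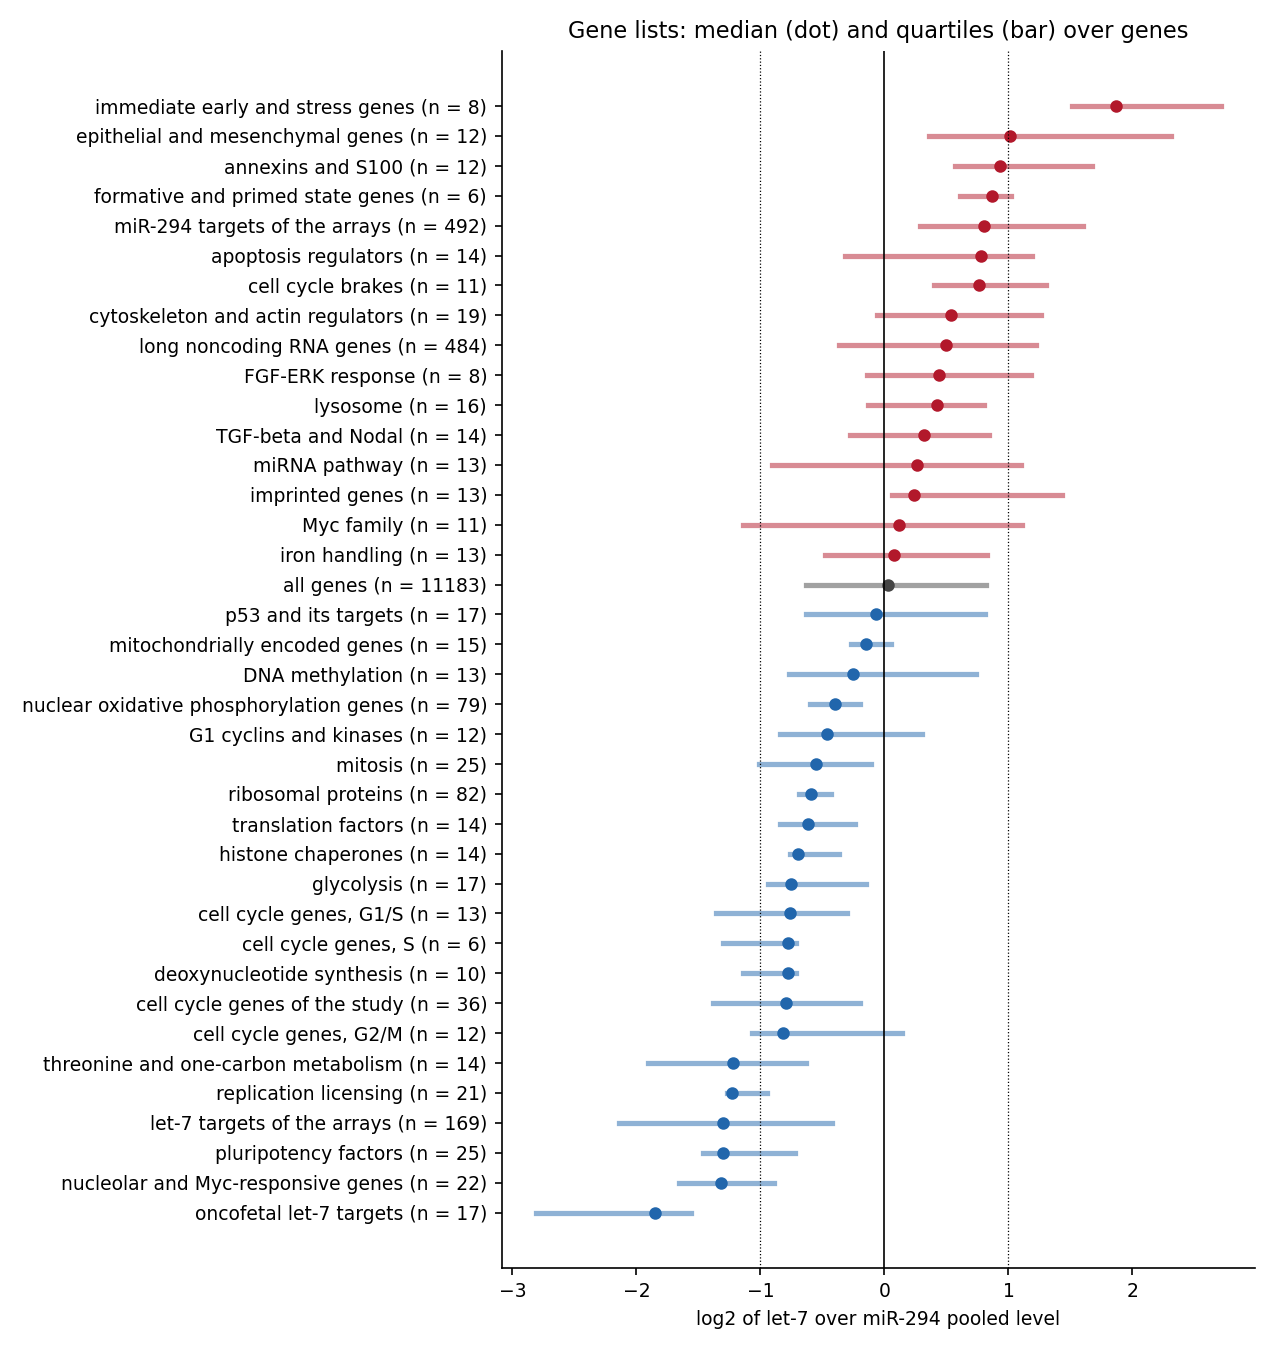
Median (dot) and quartiles (bar) over genes of the log2 ratio of the let-7 over the miR-294 level (x axis) for gene lists with at least 6 genes compared, the genes of the totipotent-like state left out, beside all genes (median 0.03). Of the lists drawn, oncofetal let-7 targets lie lowest (-1.85) and immediate early and stress genes highest (1.87), and dotted lines mark 2-fold.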

How the data were processed

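Single ESCs were captured on a Fluidigm C1 circuit and libraries were made with Nextera XT. The authors counted reads with RSEM 1.2.19 against Gencode M4, and deposited expected counts and FPKM per gene for each run of a cell. Per the study's methods, cells with few reads, with a median count of 0, or transfected without downregulation of targets had been removed. The deposited FPKM values were not used.

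The deposited expected counts were added up over repeat runs and rounded, then over the cells of an arm. Pooled sums were set to CPM and divided by median-of-ratios factors over 14387 genes (1.096 for let-7, 0.973 for miR-294, 1.015 for mock, 0.924 for WT). A gene was compared if its count averaged 5 or more across all 182 cells. A pooled sum of 0 was set to 3 counts. With 1 sample per arm no test was possible, and a gene was counted as different from 2-fold on. Seed matches were searched in the longest 3′ UTR of each gene (Gencode M21, GRCm38). Shared 31-base words were counted between transcripts of different genes.

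Named genes were the 15 with the largest ratio in each direction with a level of at least 50, counted in at least 75% of cells of the higher arm and with the same direction in the median over cells, without predicted genes and pseudogenes. To these came Sall4, Nanog, Cdkn1a and Rrm2, the 8 leading targets of each array list, and up to 4 genes in each direction of every list. Markers and genes given only by cell counts are named besides. Some genes that this rule selects are not reported here. The comparison, genes and lists were chosen with earlier results of these data known. Python 3.11.15, numpy 2.4.6, pandas 2.3.3, scipy 1.17.1, R 4.3.3 and edgeR 4.0.16 (TMM alternative) were used.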

Additional observations from a re-analysis of the deposited data

How the results depend on the processing

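With equal weight for every cell, 3631 genes were at least 2-fold higher in let-7 cells and 840 in miR-294 cells, and the medians were 0.48 for all genes, 1.36 for miR-294 targets, 0.19 for genes with let-7 matches only (-0.25 as reported) and 0.79 for genes with miR-294 matches only. Relative to all genes, the let-7 match class stayed negative. As medians over cells, let-7 targets had -1.81, while both match classes and all genes had 0.00. The counts of genes higher in let-7 and in miR-294 cells were 7039 and 5244 without a filter, 567 and 745 at a mean count of at least 50, and 924 and 428 at 4-fold. Higher in miR-294 cells at 1.5-fold were 2971 genes, and higher in let-7 cells with every cell thinned to 500000 counts were 1366. Without the cell highest for the gene, the log2 ratio was -3.87 for Gata4 and -1.31 for Grhl2, so that both turned. The balance of target sums is a ratio within a cell, which a scaling of whole cells cannot move. Let-7 cell 41 and the highest cell of each gene were left out as alternatives chosen after seeing the data, and cell 41 moved none of the counts and medians above by more than their limits. Of 116 named genes at least 2-fold apart, 1321 of 1392 values under the alternatives were at least 2-fold in the same direction. The filter at a mean count of at least 50 cannot change the ratio of a gene. Lifting the filter adds only a small constant to the pooled counts. Both were among the alternatives, and many of the genes were named for large ratios in these same data. The share is therefore no independent measure of stability. No paired analysis was possible because replicate numbers mark runs of 1 cell and each arm was 1 sample. Depth limits genes counted in few cells, for which a level of 0 in a cell may be a failed capture.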

Other observations

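The 3 miR-294 cells with another name prefix had summed let-7 target levels from 17280 to 18182 and summed miR-294 target levels from 15600 to 23002. Their target balance was -0.22 to 0.41, within the range of the other miR-294 cells. Their pluripotency sums were 8337 to 11171 and their nucleolar sums 10786 to 11784.

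Genes of the totipotent-like state, which marks a rare subset of ESCs, were counted in few cells. Of 7 genes compared, 6 (85.7%) were at least 2-fold higher in let-7 cells, against 21% of all genes. The median log2 ratio of the 7 was 2.93. Both arms held a cell with a high summed level of the list. The highest sum was 24780 in let-7 cells and 21138 in miR-294 cells, with means of 942 and 402. The sum was 0 in 19 of 45 let-7 cells and 36 of 54 miR-294 cells. Usp17lc was counted in 8 of 45 let-7 cells, and 1 cell gave 91.8% of its count. Usp17la was counted in 10 let-7 cells, and 1 cell gave 79.3%. Without that cell the log2 ratios were 7.40 and 3.25. Of the 31-base words of Usp17lc and Usp17la, 60.6% and 36.9% occur in other genes.

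The summed level of 6 trophoblast markers ranged from 0 to 251 (median 25.1) over let-7 cells and from 0 to 151 (median 9.26) over miR-294 cells, and 7 of 45 let-7 cells lay above every miR-294 cell. The median was 14.3 in mock cells and 66.6 in WT cells. Of the 4 markers compared, 1 (25%) was at least 2-fold higher in let-7 cells and 0 in miR-294 cells, with a median log2 ratio of 0.71. The shares of all genes compared were 21% and 14.8%. In the epithelial list, Cldn7 was counted in 19 of 45 let-7 cells with a log2 ratio of 5.70.

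The 2 runs of WT cell 32 also disagreed, with a Pearson's r of 0.498, and gave target balances of -0.57 and 0.35.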
